A study of Mus musculus with 8 samples.

Results

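Genes that mark young neurons as they leave the cell cycle, extend axons and take on a transmitter were examined in whole mouse embryos at E11.5. The 40 genes, listed by their known roles, comprise stathmins, neuronal RNA-binding proteins, neuronal intermediate filaments, microtubule and axon growth proteins, cell adhesion molecules, secretory and synaptic proteins, transcription factors and transmitter genes. The list was made with earlier results of these data known, so its counts and medians beside those of all probes are descriptions. A probe belonged to the group where its RefSeq transcript is one of a listed gene, which gave 37 of the 34967 gene probes on the array, for 35 of the 40 genes. Elavl2, Syt4 and the 3 cell adhesion genes L1cam, Nrcam and Cntn2 had no matched probe and are not analysed here. Of the 37 probes, 33 probes of 31 genes passed the filter on dim signal, which required 1 genotype or more to be above background on each of its arrays, and 27 probes were above background on all 8 arrays.

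Each of the 8 one-colour CodeLink arrays held the RNA of 1 whole embryo bred from mice with an Ott1 allele of low expression, and Ott1 is now named Rbm15. Embryos 11 and 13 were wild type (n = 2), embryos 3, 10 and 15 heterozygous (n = 3) and embryos 2, 7 and 16 homozygous for the allele (n = 3), and all were the same age. The labels do not give how the allele lowers expression, the strain, the litter or the sex. The allele is described as lowering expression and not as a deletion, no probe was matched to Rbm15, and so its level in these embryos is not analysed here.

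Newly born neurons exchange the gene programme of dividing progenitors for proteins that build an axon. Stathmins bind tubulin and keep growing microtubules dynamic, the Elavl and Celf proteins bind RNA and govern neuronal splicing and mRNA stability, and neurofilament proteins, with peripherin and alpha-internexin, fill the axon. At this stage of development the first sensory, motor and brainstem neurons have already left the cell cycle, while much of the neural tube still consists of progenitors. Rbm15, a Spen family protein that binds RNA, helps direct m6A methylation of RNA.

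Over all probes, all 3 homozygous arrays were brighter before normalization (median intensity of 61.45, 61.52 and 87.93) than the 5 other arrays (48.28 to 57.63), and array brightness and genotype cannot be told apart. Pairs of arrays, on the log2 scale, correlated at 0.973 to 0.990 across probes without embryo 16, and at 0.956 to 0.968 in pairs with embryo 16, which thus stands apart from the rest. The mean of 6 Y-linked probes, centred over the embryos, was -1.58, -1.74 and -0.62 in embryos 3, 15 and 16, and lay between 0.61 and 0.84 in the others. The embryos carry no sex label, and a covariate made from these probes was an alternative.

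Member levels lay mostly lower in homozygous embryos than in the 5 wild type and heterozygous embryos, but no member passed limma's test (adjusted p under 0.05). None of the 33 member probes passed, against 25 of the 23388 probes tested (0.107%), and the lowest adjusted p of a member was 0.164. The log2 difference was negative for 30 of the 33 probes, against 60.2% of all probes tested. Of the 33, 32 were negative with median scaling and in the deposited table, against 76.2% and 78.9% of all probes. Its median was -0.42 over the members and -0.06 over all probes. At an unadjusted p under 0.05, 6 member probes lay lower, against 13.4% of all probes, and 0 lay higher, against 6.63%. A share of 6 in 33 is close to that background. Celf3 and Syt1, which are among the 6, entered the test only through genotypes where their means are higher. The count of 6 was 14 with median scaling (all probes: 20.4%) and 16 in the deposited table (all probes: 23%). It was 24 without embryo 10 (all probes: 12.3%), 2 without embryo 15 (all probes: 11%) or embryo 16 (all probes: 9.37%), and 3 without embryo 11 (all probes: 9.63%) or embryo 13 (all probes: 10.3%). In RNA of whole embryos, fewer neurons and less of these transcripts per neuron cannot be told apart.

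**Figure D1:**
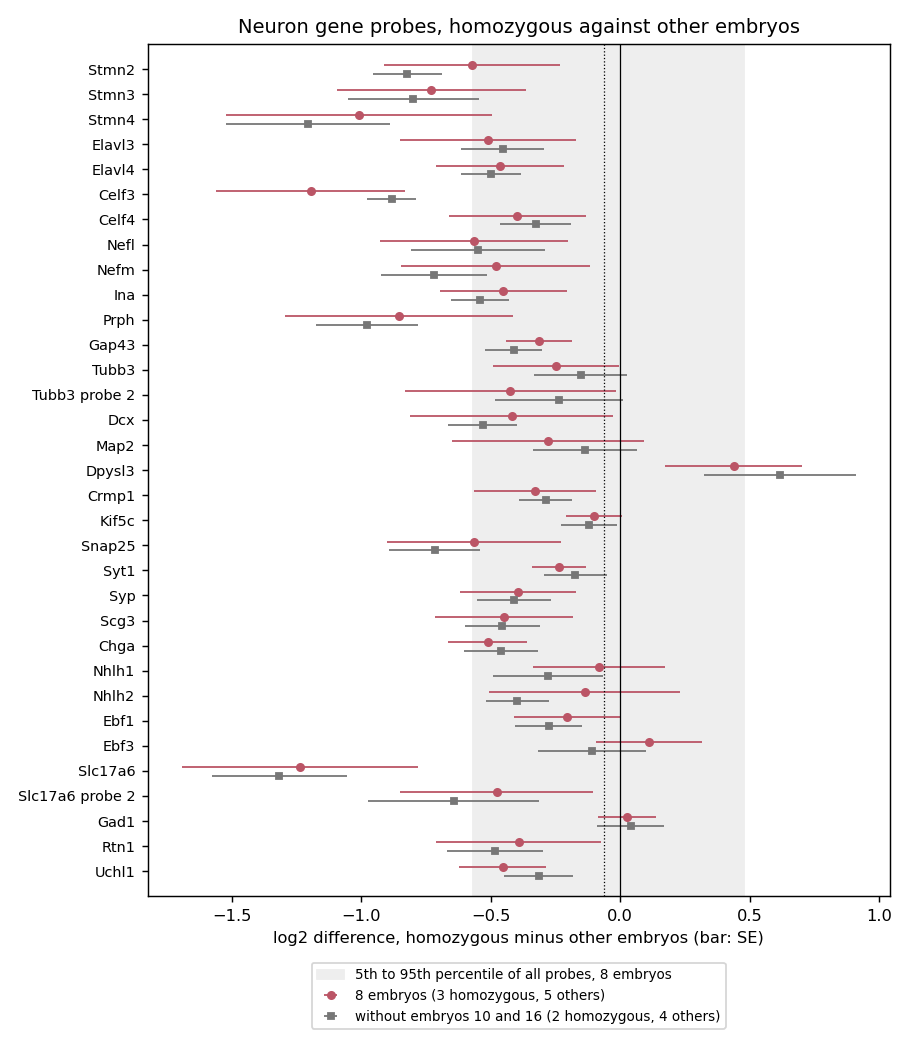
Log2 difference between the 3 homozygous and the 5 other embryos for each of the 33 member probes, grouped by class, with points for the fitted difference and bars for its standard error. Differences run from -1.24 for Slc17a6 to 0.44 for Dpysl3, and none passed limma's test after adjustment.

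The other genotype comparisons use the same arrays and are not independent of this one. Against wild type, the members' median log2 difference in homozygous embryos was -0.64 (all probes: -0.07), and 32 of 33 were negative (all probes: 59.9%). Again 0 members passed (all probes: 8, or 0.0342%), with a lowest adjusted p of 0.246, and 10 lay lower at an unadjusted p under 0.05 (all probes: 9.36%) and 0 higher (all probes: 5.93%). That count of 10 rested on single embryos and on the scaling: it was 0 without embryo 13 (all probes: 3.87%), 2 without embryo 11 (all probes: 3.82%), 4 without embryo 16 (all probes: 8.22%), 6 without embryo 7 (all probes: 12%) and 23 without embryo 10 (all probes: 9.14%). It was 24 with median scaling (all probes: 12.4%) and in the deposited table (all probes: 13.7%), and 17 with the Y-linked covariate (all probes: 8.66%). Heterozygous embryos differed from wild type by a median of -0.41 (all probes: -0.01), with 32 of 33 negative (all probes: 51.5%). Here 0 members passed (all probes: 0%), and 0 lay lower at an unadjusted p under 0.05 (all probes: 1.04%) and 0 higher (all probes: 1.26%). With the Y-linked covariate the median was -0.67 and 10 lay lower (all probes: 2.32%), and 5 did without embryo 15 (all probes: 1.48%). Homozygous against heterozygous embryos gave a median of -0.24 (all probes: -0.06), with 29 of 33 negative (all probes: 60%) and 0 passing (all probes: 5, or 0.0214%), and 2 lower at an unadjusted p under 0.05 (all probes: 7.85%) and 0 higher (all probes: 3.78%). With the Y-linked covariate 20 of 33 were negative (all probes: 61.7%), with a median of -0.05, and 0 lay lower (all probes: 12.2%) and 1 higher (all probes: 5.17%). There were 14 lower without embryo 10 (all probes: 5.67%). Leaving out embryo 15 gave 20 of 33 negative (all probes: 60.3%) and 0 lower (all probes: 4.44%).

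Member values differed widely between embryos of 1 genotype. Each probe was centred on its mean over the embryos, and the median over the member probes was then taken in each embryo. This median was 0.27 and 0.48 in wild type embryos 11 and 13, 0.18, -0.59 and 0.35 in heterozygous embryos 3, 10 and 15, and -0.08, -0.11 and -0.59 in homozygous embryos 2, 7 and 16. Heterozygous embryo 10 thus lay below homozygous embryos 2 and 7, and in this normalization as low as embryo 16. With median scaling embryos 10 and 16 lay at -0.50 and -1.03, in the deposited table at -0.49 and -1.07, and with cyclic loess at -0.65 and -0.52. Wild type embryos averaged 0.37 ± 0.15 (SD, n = 2), heterozygous embryos -0.02 ± 0.50 (SD, n = 3) and homozygous embryos -0.26 ± 0.29 (SD, n = 3).

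**Figure D2:**
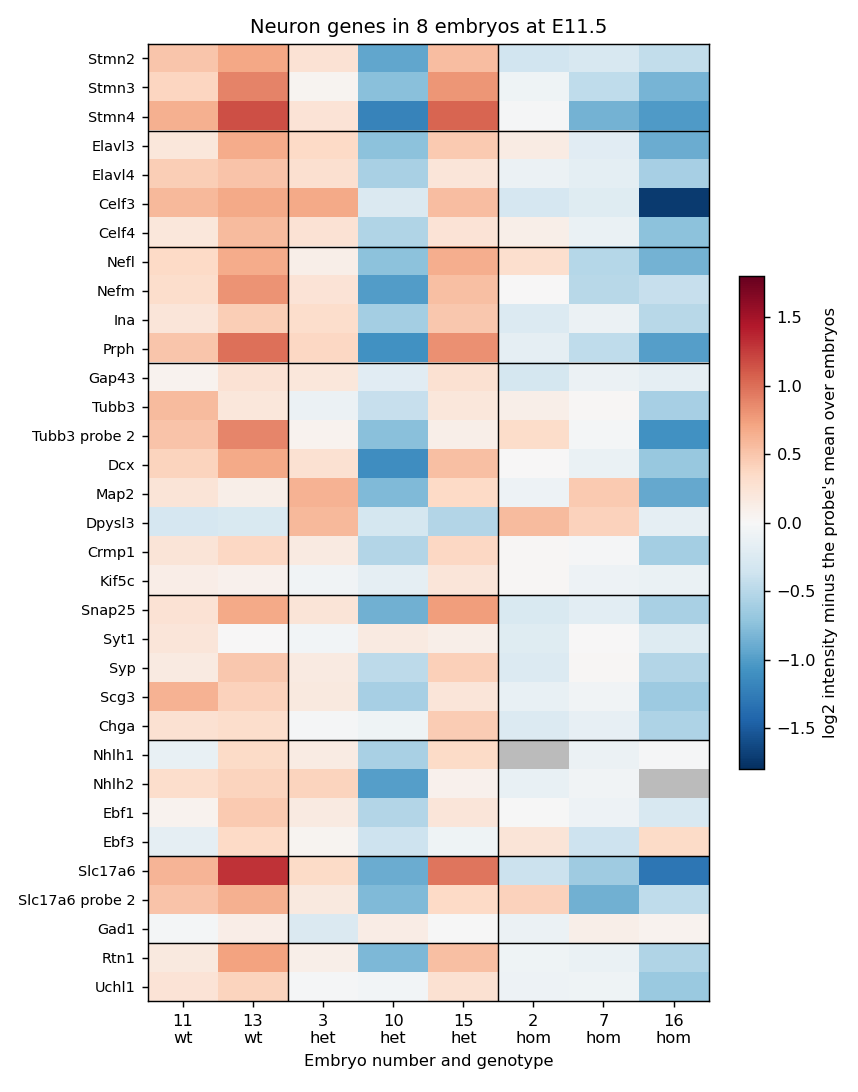
Log2 level of each tested member probe in each of the 8 embryos, as the difference from that probe's mean over the embryos; the colour scale is in log2 units and grey cells are missing spots. Embryos 10 and 16 have most of the lowest cells and embryos 11, 13 and 15 most of the highest.

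Among the 31 member probes with a value in all 8 embryos, the lowest value lay in embryo 16 for 16 probes (all probes: 38.3%) and in embryo 10 for 11 (all probes: 9.26%). Either of these embryos held the lowest value for 27 probes, or 87.1%, against 47.5% of all probes. The highest value lay in embryo 11, 13 or 15 for 27 probes, or 87.1%, against 36.7%, and in embryo 13 alone for 19 (all probes: 12.7%). Gap43, Dpysl3, the second Slc17a6 probe and Gad1 had their lowest value in another embryo. The probes share their arrays, so these counts are descriptions of 8 embryos.

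Promoter windows of the members were searched for 3 short motifs. RefSeq's promoter table (GRCm38.p6) holds 30 of the 40 members, and the 250 bases before each start were searched on both strands for CAGATG, an E-box that helix-loop-helix factors bind, for TGACGTCA, the cAMP response element, which reads the same on both strands, and for the TATA box letters TATAAA. The E-box was present in 9 of 30 member genes (30%) against 16.3% of the 27025 genes in the table, TGACGTCA in 4 (13.3%) against 1.77%, and TATAAA in 7 (23.3%) against 14.3%. The 4 genes with TGACGTCA were Celf3, Chgb, Kif5c and Scg2, of which Chgb and Scg2 were not tested on the arrays. L1cam and Map1b among the E-box genes, and Map1b among the TATAAA genes, were not tested either. Member genes have 1.73 windows each and all genes 1.22, so member genes had more bases searched. The motifs were searched after the member values were known.

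The 4 windows shown belong to the members with the largest negative difference among those with an entry, each the window with most matches. They lie upstream of the start of Slc17a6 (chr7:51624387-51624636, plus strand), Celf3 (chr3:94484108-94484357, plus strand), Prph (chr15:99054924-99055173, plus strand) and Stmn3 (chr2:181314501-181314750, minus strand). Capitals mark the motif: CAGATG 205 bases before the start in Slc17a6 and 75 in Stmn3, TGACGTCA 139 and CATCTG, the E-box read on the other strand, 42 bases before the start in Celf3, and TATAAA 31 bases before the start in Prph.
Slc17a6: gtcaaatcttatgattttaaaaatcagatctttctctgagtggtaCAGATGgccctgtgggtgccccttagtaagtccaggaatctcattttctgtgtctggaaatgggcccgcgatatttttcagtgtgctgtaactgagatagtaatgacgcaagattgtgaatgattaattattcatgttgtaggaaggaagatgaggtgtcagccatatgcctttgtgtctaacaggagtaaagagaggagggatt
Celf3: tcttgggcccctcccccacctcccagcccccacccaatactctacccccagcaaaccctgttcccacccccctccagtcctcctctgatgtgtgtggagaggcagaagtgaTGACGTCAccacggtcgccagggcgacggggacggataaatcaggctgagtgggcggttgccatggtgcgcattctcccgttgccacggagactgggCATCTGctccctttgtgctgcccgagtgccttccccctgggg
Prph: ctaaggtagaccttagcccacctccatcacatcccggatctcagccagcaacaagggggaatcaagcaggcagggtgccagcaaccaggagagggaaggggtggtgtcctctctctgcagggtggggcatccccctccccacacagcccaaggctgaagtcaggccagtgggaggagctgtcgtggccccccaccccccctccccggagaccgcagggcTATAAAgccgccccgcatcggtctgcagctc
Stmn3: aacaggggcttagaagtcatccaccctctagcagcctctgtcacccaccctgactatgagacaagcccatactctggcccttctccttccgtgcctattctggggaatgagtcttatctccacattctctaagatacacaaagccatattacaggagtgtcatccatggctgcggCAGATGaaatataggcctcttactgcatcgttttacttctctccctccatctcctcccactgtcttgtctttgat
The 4 genes with the largest differences and an entry share no single motif. They were not searched equally: Celf3 has 7 windows, Slc17a6 has 2, and Prph and Stmn3 have 1 each. Celf3 also has TATAAA, in a window not shown. A match is a stretch of letters and not a tested site.

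The stathmins had the lowest class median in homozygous embryos, at -0.73 against the others and -1.10 against wild type. Log2 levels are given throughout for wild type embryos 11 and 13, heterozygous embryos 3, 10 and 15, and homozygous embryos 2, 7 and 16, in that order. Stmn2 (probe GE40657), a tubulin-binding protein of growth cones, lay at 10.81 and 11.02, at 10.58, 9.37 and 10.87, and at 9.97, 10.03 and 9.87. All 3 homozygous embryos lay below 4 of the other embryos and above embryo 10. The means were 10.91 ± 0.15 (SD, n = 2), 10.27 ± 0.79 (n = 3) and 9.95 ± 0.08 (n = 3), and homozygous embryos differed from the others by -0.57 (SE 0.34, 1.49-fold lower, limma adjusted p = 0.365).

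Stmn3 (GE42566) lay at 10.59 and 11.09, at 10.24, 9.44 and 10.99, and at 10.11, 9.74 and 9.36. Stmn4 (GE37586) lay at 7.82 and 8.34, at 7.43, 5.98 and 8.22, and at 7.16, 6.33 and 6.16. For both, embryo 10 fell within or below the homozygous range and the 4 other wild type and heterozygous embryos lay above it. The log2 difference between homozygous and other embryos was -0.73 for Stmn3 (SE 0.36, 1.66-fold lower, limma adjusted p = 0.294). It was -1.01 for Stmn4 (SE 0.51, 2.01-fold lower, limma adjusted p = 0.301), and -1.53 against wild type (SE 0.61, adjusted p = 0.305).

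**Figure D3:**
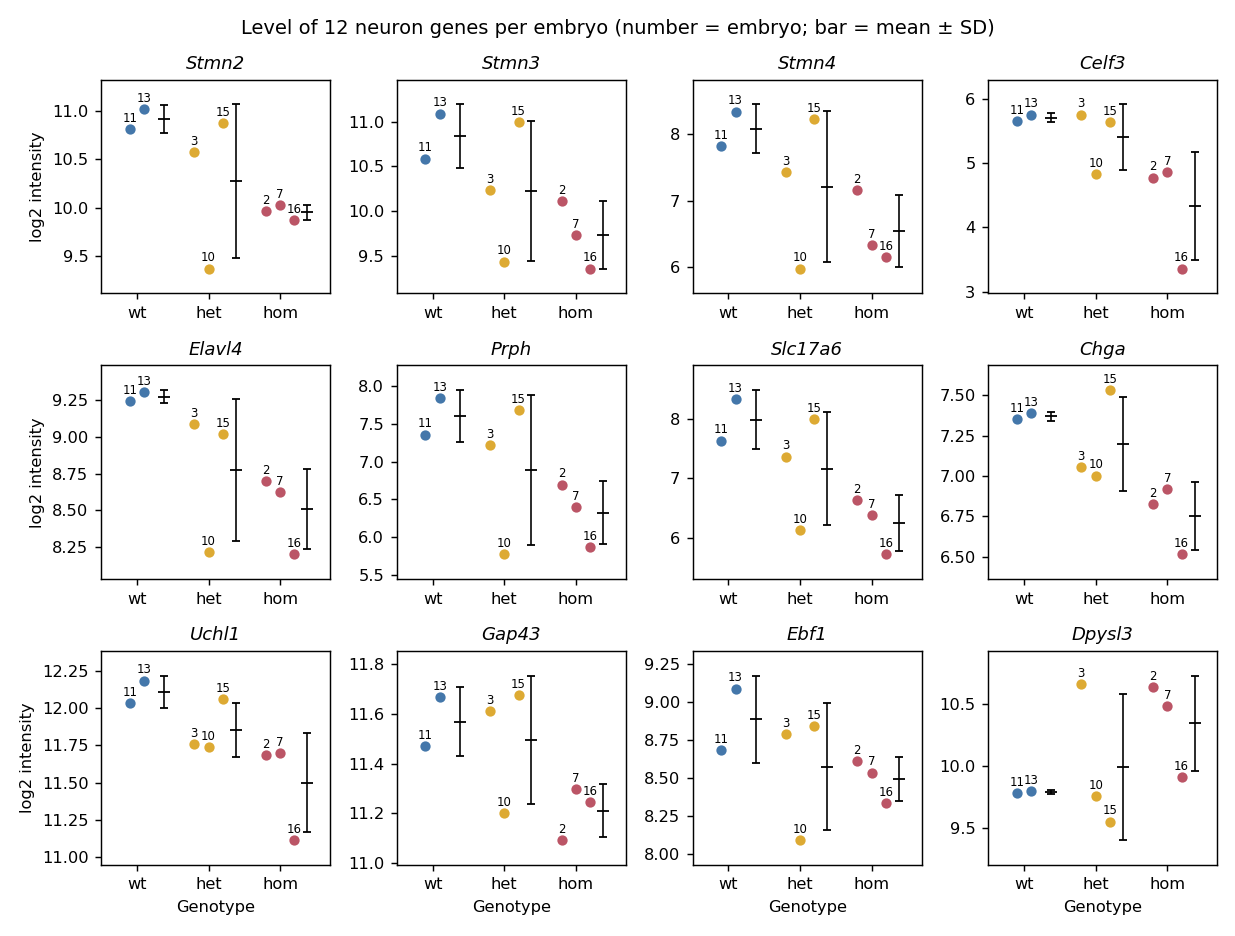
Log2 normalized intensity of 12 members in each embryo, with 1 numbered point per embryo and the genotype mean ± SD as a bar. In most panels heterozygous embryo 10 lies within or below the range of the homozygous embryos, and for Chga and Uchl1 the 3 homozygous embryos lie below the 5 others.

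Neuronal RNA-binding genes had a median difference of -0.49, and all 4 tested were negative. Celf3 (GE40280), a splicing regulator of neurons, lay at 5.66 and 5.76, at 5.76, 4.83 and 5.64, and at 4.78, 4.87 and 3.36. Its signal was above background in 2 of 2 wild type, 2 of 3 heterozygous and 2 of 3 homozygous embryos, so its lowest levels are near the array's limit. Celf3 thus entered the test through wild type, where its mean is highest. The means were 5.53 ± 0.40 (SD, n = 5) in the other embryos and 4.33 ± 0.85 (n = 3) in homozygous embryos, a log2 difference of -1.20 (SE 0.36, 2.29-fold lower, limma adjusted p = 0.168). The size of this difference depended on the processing, at -0.41 with normexp and -0.87 with array weights, and it was -0.71 without embryo 16. Embryo 10, at 4.83, lay within the homozygous range.

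Elavl4 (GE35578), which binds AU-rich elements and stabilises neuronal mRNA, lay at 9.24 and 9.31, at 9.09, 8.22 and 9.02, and at 8.70, 8.63 and 8.20. Apart from embryo 10, all wild type and heterozygous embryos lay above the homozygous ones. Its difference from the others was -0.46 (SE 0.25, limma adjusted p = 0.320), and from wild type -0.77 (SE 0.28, adjusted p = 0.280). Elavl3, a related RNA-binding gene, and Celf4 differed from the others by -0.51 (SE 0.34) and -0.40 (SE 0.26).

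Intermediate filament genes had a median difference of -0.52, with all 4 negative. Prph (GE36742), peripherin of sensory and motor axons, lay at 7.36 and 7.85, at 7.22, 5.77 and 7.68, and at 6.69, 6.40 and 5.87. The lowest of all 8 values was that of embryo 10, and the other 4 wild type and heterozygous embryos lay above every homozygous one. Its log2 difference was -0.85 (SE 0.44, 1.81-fold lower, limma adjusted p = 0.306).

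Ina (GE35607), alpha-internexin, lay at 8.82 and 9.04, at 8.92, 7.98 and 9.08, and at 8.36, 8.49 and 8.10. Embryo 10 again lay below the homozygous embryos, which lay below the other 4. The log2 difference was -0.45 (SE 0.25, limma adjusted p = 0.329). The neurofilament genes Nefl and Nefm differed by -0.56 (SE 0.36) and -0.48 (SE 0.37).

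Microtubule and axon growth genes had a smaller median, -0.30, with 7 of 8 tested probes negative. Gap43 (GE42499), a growth cone protein, lay at 11.47 and 11.67, at 11.61, 11.20 and 11.68, and at 11.09, 11.30 and 11.24. Embryo 10 fell between homozygous embryos 2 and 16, so the groups overlapped at that embryo. The log2 difference was -0.31 (SE 0.13, 1.24-fold lower, limma adjusted p = 0.226).

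Dpysl3, a collapsin response mediator of growing axons, was the member with the highest positive difference, 0.44 (SE 0.26, limma adjusted p = 0.372). Its log2 levels were 9.78 and 9.80, then 10.66, 9.76 and 9.55, then 10.64, 10.49 and 9.91. With median scaling it differed by 0.16, and by 0.13 in the deposited table. Dcx, which binds microtubules in migrating neurons, had a difference of -0.42 (SE 0.39), and Crmp1, a relative of Dpysl3, -0.33 (SE 0.23). Kif5c, a kinesin of axonal transport, varied least of all tested members, with an SD of 0.131 over the embryos and a difference of -0.10 (SE 0.11). Both probes of Tubb3, the neuronal beta-tubulin, gave negative differences of -0.25 (SE 0.24) and -0.42 (SE 0.41). Map2, a dendritic microtubule protein, gave -0.28 (SE 0.37). It was above background in 2 embryos of each genotype, so it entered the test through wild type, where its mean is highest. Mapt was above background on 0 arrays and Map1b on 1 array, and neither was tested.

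Secretory and synaptic genes had a median of -0.45, with all 5 tested negative. Chga (GE34850), chromogranin A of dense-core vesicles, lay at 7.35 and 7.39, at 7.05, 7.00 and 7.53, and at 6.83, 6.92 and 6.51. All 3 homozygous embryos lay below the 5 others, as they did for Uchl1 and, in this normalization, for no other member. These 2 of 33 probes compare with 9.69% of all probes tested whose homozygous values lie below all others. With median scaling and in the deposited table Gap43 and Kif5c joined them, which made 4 of 33 (all probes: 16.3% and 17.8%). The 3 homozygous values lay above all others for 0 of 33 probes (all probes: 4.96%). The Chga means were 7.27 ± 0.23 (SD, n = 5) and 6.75 ± 0.21 (n = 3), a difference of -0.51 (SE 0.15, 1.43-fold lower, limma adjusted p = 0.164).

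Scg3 (GE1575390), secretogranin III of the same vesicles, lay at 9.84 and 9.64, at 9.39, 8.62 and 9.44, and at 9.09, 9.15 and 8.57. Only embryo 10 of the wild type and heterozygous embryos lay within the homozygous range. Its difference was -0.45 (SE 0.27, limma adjusted p = 0.365), and -0.80 against wild type (SE 0.28, adjusted p = 0.278). Syt1 (GE33752), the calcium sensor of vesicle release, lay at 5.14 and 4.93, at 4.87, 5.09 and 5.03, and at 4.70, 4.93 and 4.68, so its groups overlapped.

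The Syt1 difference was -0.24 (SE 0.10, limma adjusted p = 0.249). Syt1 was above background in all wild type and heterozygous embryos and in 2 of 3 homozygous embryos. Syt1 thus entered the test through wild type and heterozygous embryos, where its means are higher. The size of its difference depended on the processing, at -0.10 with cyclic loess and -0.08 with normexp. Snap25, part of the vesicle fusion complex, and Syp, a vesicle membrane protein, differed by -0.57 (SE 0.34) and -0.40 (SE 0.22). Chgb was above background on 0 arrays, and the spot of Scg2 was marked as unusable on all 8, so neither was tested.

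The transcription factors of early neurons lay closest to no difference, with a median of -0.11 and 3 of 4 negative. All 4 had their lowest value in heterozygous embryo 10, which is among the others here. Against wild type their median was -0.28, with 4 of 4 negative (all probes: 59.9%). Ebf1 (GE42486), of the early B-cell factor family, lay at 8.68 and 9.09, at 8.79, 8.09 and 8.84, and at 8.61, 8.53 and 8.33. Its homozygous embryos lay above embryo 10 and below the others, with a difference of -0.20 (SE 0.20, limma adjusted p = 0.590). Ebf3 differed by 0.11 (SE 0.20) and turned to -0.10 with median scaling and to -0.13 in the deposited table. Nhlh1 and Nhlh2, helix-loop-helix factors of newborn neurons, differed by -0.08 (SE 0.26) and -0.14 (SE 0.37). Each had 2 homozygous values, since 1 spot of each was marked, in embryo 2 for Nhlh1 and in embryo 16 for Nhlh2. With median scaling Ebf1, Nhlh1 and Nhlh2 differed by -0.42, -0.36 and -0.19 (median of all probes: -0.22).

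Transmitter genes went apart. Slc17a6 (GE39782), which encodes a vesicular glutamate transporter and has the E-box window given above, lay at 7.63 and 8.33, at 7.36, 6.13 and 7.995, and at 6.64, 6.38 and 5.73. Every homozygous embryo lay below 4 of the other embryos, and embryo 10 lay within the homozygous range. The means were 7.49 ± 0.84 (SD, n = 5) and 6.25 ± 0.47 (n = 3), a log2 difference of -1.24 (SE 0.46, 2.36-fold lower, limma adjusted p = 0.20). Against wild type it was -1.73 (SE 0.53, 3.31-fold lower, adjusted p = 0.246).

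The second Slc17a6 probe lay at 5.50 and 5.62, at 5.16, 4.19 and 5.34, and at 5.41, 4.12 and 4.53. It differed by -0.48 (SE 0.37, limma adjusted p = 0.485), and it was above background in 2 of 2 wild type, 2 of 3 heterozygous and 2 of 3 homozygous embryos, so it entered the test through wild type, where it is highest. On this probe homozygous embryo 2 lay above all 3 heterozygous embryos, and on the first above embryo 10 alone. Gad1, which makes the transmitter GABA, lay between 6.76 and 7.15 in all 8 embryos, with a difference of 0.03 (SE 0.11). With median scaling it differed by -0.08, and by -0.12 in the deposited table.

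Uchl1 (GE36255), an abundant neuronal ubiquitin hydrolase, lay at 12.04 and 12.19, at 11.76, 11.74 and 12.06, and at 11.69, 11.70 and 11.12. The homozygous embryos lay below all others, although embryos 7 and 10, at 11.70 and 11.74, lay close together. Its difference was -0.45 (SE 0.17, 1.37-fold lower, limma adjusted p = 0.204). Rtn1, a reticulon of the endoplasmic reticulum, differed by -0.39 (SE 0.32).

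Leaving out both embryos that lay lowest, heterozygous embryo 10 and homozygous embryo 16, left 2 homozygous and 4 other embryos. This alternative was planned with the low values of embryo 10 known. Embryo 10 lay within or below the homozygous range for most members, so leaving it out by itself reduces the overlap and the spread. The counts and the Celf3 result below follow in part from that choice and are no separate support. Embryo 10 was not chosen on the values of all probes, so the shares over all probes are not a like comparison. Celf3 alone passed, with a difference of -0.88 (SE 0.09, limma adjusted p = 0.0275), against 80 of 23386 probes tested (0.342%). Celf3 entered the test through wild type, where its mean is highest, and a filter that required signal on all arrays left it out. At an unadjusted p under 0.05, 21 of 33 member probes lay lower (all probes: 10.2%), and 22 of 33 had both homozygous values below all 4 others (all probes: 17.3%). Stmn2 differed by -0.82 (SE 0.13, adjusted p = 0.0740), Slc17a6 by -1.32 (SE 0.26, adjusted p = 0.104) and Prph by -0.98 (SE 0.20, adjusted p = 0.104). Leaving out embryo 10 alone, 24 of 33 lay lower at an unadjusted p under 0.05 (all probes: 12.3%) and 0 passed (all probes: 0.188%). Without embryo 16 alone 2 did (all probes: 9.37%) and 0 passed (all probes: 0.107%).

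Other genes of the neuronal pathway, listed by role, gave smaller medians. Neuronal transcription factors (21 probes tested) had a median difference of -0.24 with 18 negative and 3 positive, synapse and vesicle genes (17 probes) -0.35 with 14 and 3, and axon growth and guidance genes (23 probes) -0.20 with 16 and 7. Over all probes the median was -0.06 and 60.2% were negative. In each list 0 passed, and 3, 3 and 6 probes lay lower at an unadjusted p under 0.05 (all probes: 13.4%), while 1, 0 and 0 lay higher (all probes: 6.63%). Plxna4, a semaphorin receptor, differed by -0.76 (SE 0.14, limma adjusted p = 0.0998), and Gdap1 by -0.96 (SE 0.28, adjusted p = 0.163). Plxna4 was above background in all wild type and heterozygous embryos and in 2 of 3 homozygous embryos. Plxna4 thus entered the test through the genotypes where its means are higher. In embryo 10 the centred medians of these lists were -0.15 for the factors, -0.19 for synapse genes and -0.15 for axon genes, against -0.59 for the members.

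**Figure D4:**
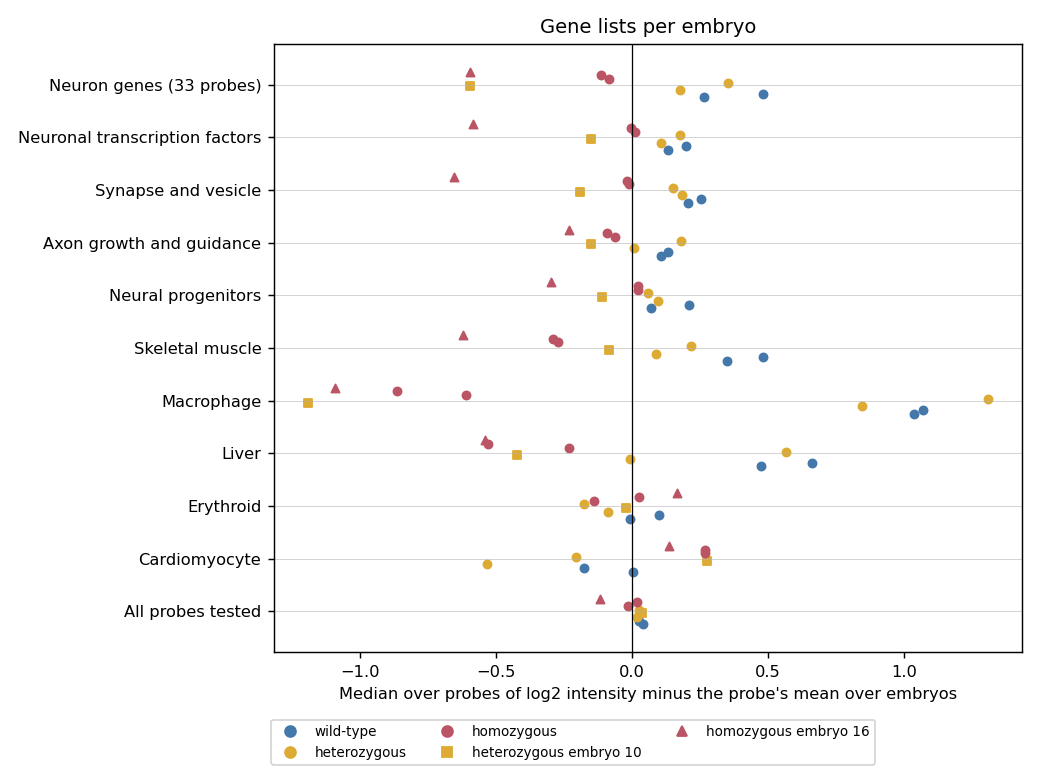
Median log2 level per embryo, relative to each probe's mean over the embryos, for the members and the other lists, with 1 point per embryo coloured by genotype. The member median of embryo 10 is -0.59. Its median is -1.19 for macrophage, -0.42 for liver, -0.11 for neural progenitor, -0.08 for skeletal muscle and 0.28 for cardiomyocyte genes.

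Lists for other cells show which moved with the members. Neural progenitor genes (18 probes tested) had a median difference of -0.12, with embryo medians from -0.30 in embryo 16 to 0.21 in embryo 13, and 0 passed. Macrophage genes (6 probes tested, of 8 genes listed) had a median of -1.54, with 6 negative (all probes: 60.2%). Of these, 4 lay lower at an unadjusted p under 0.05 (all probes: 13.4%), and 0 passed against the other embryos (all probes: 0.107%). Their embryo medians were 1.04, 1.07, 0.85, -1.19, 1.31, -0.61, -0.86 and -1.09 in embryos 11, 13, 3, 10, 15, 2, 7 and 16. Against wild type 1 of the macrophage probes passed (all probes: 8, or 0.0342%), that of Fcgr1, an antibody receptor, at -2.20 (SE 0.23, limma adjusted p = 0.0484). Fcgr1 was above background in 2 of 2 wild type, 2 of 3 heterozygous and 1 of 3 homozygous embryos, so it entered the test through wild type, where it is highest, and its homozygous level is mostly not above background. Liver genes (6 probes) had a median of -0.71 and skeletal muscle genes (8 probes) -0.59, and in embryo 10 their embryo medians were -0.42 and -0.08. At an unadjusted p under 0.05, 4 liver and 4 skeletal muscle probes lay lower (all probes: 13.4%) and 0 higher (all probes: 6.63%). Cardiomyocyte genes (6 probes) had a median of 0.38, erythroid genes 0.10, endothelial genes 0.20 and neural crest and glia genes -0.10. Embryos that lay low for the members lay low for macrophage and liver genes too. Skeletal muscle genes also lay low in homozygous embryos 2, 7 and 16, at -0.27, -0.29 and -0.62. Each of the other neuron lists had its lowest medians in embryos 10 and 16, as did the neural progenitor list. The part of these differences in the member values was not tested.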

How the data were processed

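Per the file headers and the values, the deposited intensity of a spot is its mean minus the local background median, so the authors' values were already background-corrected. The authors' deposited value table holds the same intensities divided by 1 factor per array (48.64 to 88.45). Scanner software and genome build: not given in the sources used here. Gene spots marked as contaminated, irregular or masked (206 to 1634 per array) were set missing. The 22526 to 26619 probes above background and the number of arrays limit precision. Intensities were quantile normalized with limma 3.58.1 in R 4.3.3, floored at the 5th percentile of positive values (4.50, or 2.17 on the log2 scale) and put on the log2 scale. The 23389 probes that were above background throughout 1 genotype or more were tested with lmFit and eBayes, two-sided, with Benjamini-Hochberg adjustment over all tested probes (threshold 0.05). Replicates are separate embryos; no batch is labelled. Probes were named through their RefSeq accession (14763 of 34967), and the promoters come from RefSeq, GRCm38.p6. Values per embryo are given for the 8 members with the smallest p, the highest mean of each class, the 5 largest SDs, and members without overlap; others were named after their values were seen. The members and lists were chosen with earlier results of these data known. The method was tested on simulated data. Median scaling, loess, the deposited table, normexp, other floors and filters, array weights, a robust prior, a Y-linked covariate and left-out embryos were alternatives.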

Additional observations from a re-analysis of the deposited data

Results flagged for a closer look

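Among the 5 wild type and heterozygous embryos, 34 sets of values (33 member probes and the member median) were checked for a single embryo far from the rest, and 9 were found, 8 of them for embryo 10. Chance gives about 1 in 20 groups, and the probes share their arrays. The same check was not made over all probes, so the count has no background beside it and is a description. The member median is made from the same probes and is no separate case. Embryo 10 lay at 9.372 for Stmn2 (next embryo 10.58), 8.218 for Elavl4 (9.018), 4.825 for Celf3 (5.642) and 7.981 for Ina (8.82). It lay at 8.391 for Dcx (next embryo 9.782), 9.042 for Crmp1 (9.733) and 7.539 for Nhlh2 (8.618), and its member median was -0.5937 (next embryo 0.1774). Embryo 3 was the exception, with a high value for Dpysl3, 10.66 against 9.798 in the next embryo.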

How the results depend on the processing

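The count of members passing in homozygous against other embryos was 0 under 21 of 22 alternatives. It was 1 without embryos 10 and 16, left out for their low member values, where Celf3 passed at -0.88. In each other comparison the count was 0 under all 23 alternatives. The lowest adjusted p for homozygous against other embryos ranged from 0.0275 to 0.317. The median member difference kept its sign under every alternative, from -0.68 to -0.25 for homozygous against others, -0.89 to -0.50 against wild type, -0.67 to -0.12 for heterozygous against wild type and -0.54 to -0.04 for homozygous against heterozygous. Leaving out embryo 10 took the heterozygous difference to -0.12, and leaving out embryo 15 took homozygous against heterozygous to -0.04. Members at an unadjusted p under 0.05 and lower in homozygous than in other embryos numbered 6, and 2 to 24 with 1 embryo left out. Over all probes, 25 passed in homozygous against others, 5 without embryo 13 or 15, 6 without a filter, 42 with loess, 45 in the deposited table, 85 with normexp, 110 with array weights, 118 with a trended prior and 189 without embryo 7; homozygous against wild type gave 0 to 208, against 8. The median of all probes was -0.06, and -0.22 under median scaling. No paired analysis was made, because the labels give no litter by which embryos could be paired. The causes were not tested.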
